A study of Mus musculus with 384 samples.

Results

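Among single cells sorted from mouse kidney as PDGFRB+CD45-, 44 of 161 wells with enough reads carried RNA of blood vessel endothelium. These wells were chosen by their own measured RNA: a well with at least 50000 reads was taken when 3 or more of the 7 endothelial genes Pecam1, Cdh5, Kdr, Emcn, Egfl7, Flt1 and Plvap reached 100 CPM, that is 100 reads per 1000000 reads of that well. The rule took 20 of 79 wells of batch 1 (25.3%, 95% Clopper-Pearson interval 16.2 to 36.4%) and 24 of 82 wells of batch 2 (29.3%, 19.7 to 40.4%). They were set against the wells of the same gate and batch with 0 or 1 of the 7 genes at that level, 52 in each batch. The remaining 13 wells, 7 in batch 1 and 6 in batch 2, had 2 of the genes and entered neither side. The intervals cover counting error only.

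The series holds 384 wells of FACS-seq, in which cells are sorted singly into plates and each well is sequenced with its own barcode. The 4 plates of 96 wells came from mouse kidneys at 8 weeks of age, dissociated with Liberase TL, and divide into a PDGFRB+CD45- and a PDGFRB+CD45+ gate in each of 2 batches. The well names carry the letters uuo and the title names kidney fibrosis, but the labels give no strain, genotype, procedure, time or uninjured control, and they do not say how PDGFRB was stained or reported. No animal is named, so a plate is 1 sample of its gate and batch, the wells of a plate are not replicates of a condition, and no test across samples could be made.

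PDGFRB is the receptor for PDGF-B. In vessels the ligand is made by endothelial cells and the receptor is carried by the pericytes, smooth muscle cells and fibroblasts that surround them, so endothelium is not usually counted among PDGFRB+ cells. Kidney endothelium lines arteries, glomerular capillaries, the fenestrated capillaries around the tubules, the vasa recta and veins, and each segment has genes of its own.

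The endothelial wells held a median of 277467 reads in batch 1 (126237 to 900628) and 215980 in batch 2 (85591 to 677433). The comparison wells were deeper, with medians of 373771.5 and 371070.5 reads. A median of 4011 genes was detected per endothelial well in batch 1 and 3427 in batch 2, against 4021.5 and 4020.5 in the comparison wells. The files carry plate positions and no barcode sequences, so barcodes shared between plates could not be counted, and no doublet caller was run. The wells of the CD45+ gate with 0 or 1 of the genes, 70 in batch 1 and 69 in batch 2, are given beside some results as the other gate of the series.

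The 7 genes that chose the wells are given as a description only. Egfl7, a protein secreted by endothelium, reached 100 CPM in 39 of the 44 wells, with a lowest, median and highest level of 13.2, 2777 and 10171 CPM in batch 1 and 16.8, 2516 and 8445 CPM in batch 2. Emcn, a surface sialomucin, reached it in 38 wells, at 19.5, 2301 and 8723 CPM in batch 1 and 0, 2376 and 11330.3 CPM in batch 2. These 2 genes were the most widespread of the 7. The adhesion molecule Pecam1 reached 100 CPM in 26 wells, the junction cadherin Cdh5 in 21 and the VEGF receptors Flt1 and Kdr in 20 and 16. Plvap, the protein of the diaphragms in fenestrated capillaries, reached it in 14 wells, with a median of 5.61 CPM in batch 1 and 11.3 CPM in batch 2. For each of Pecam1, Cdh5, Flt1, Kdr and Plvap, at least 1 endothelial well of each batch held no read.

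**Figure D1:**
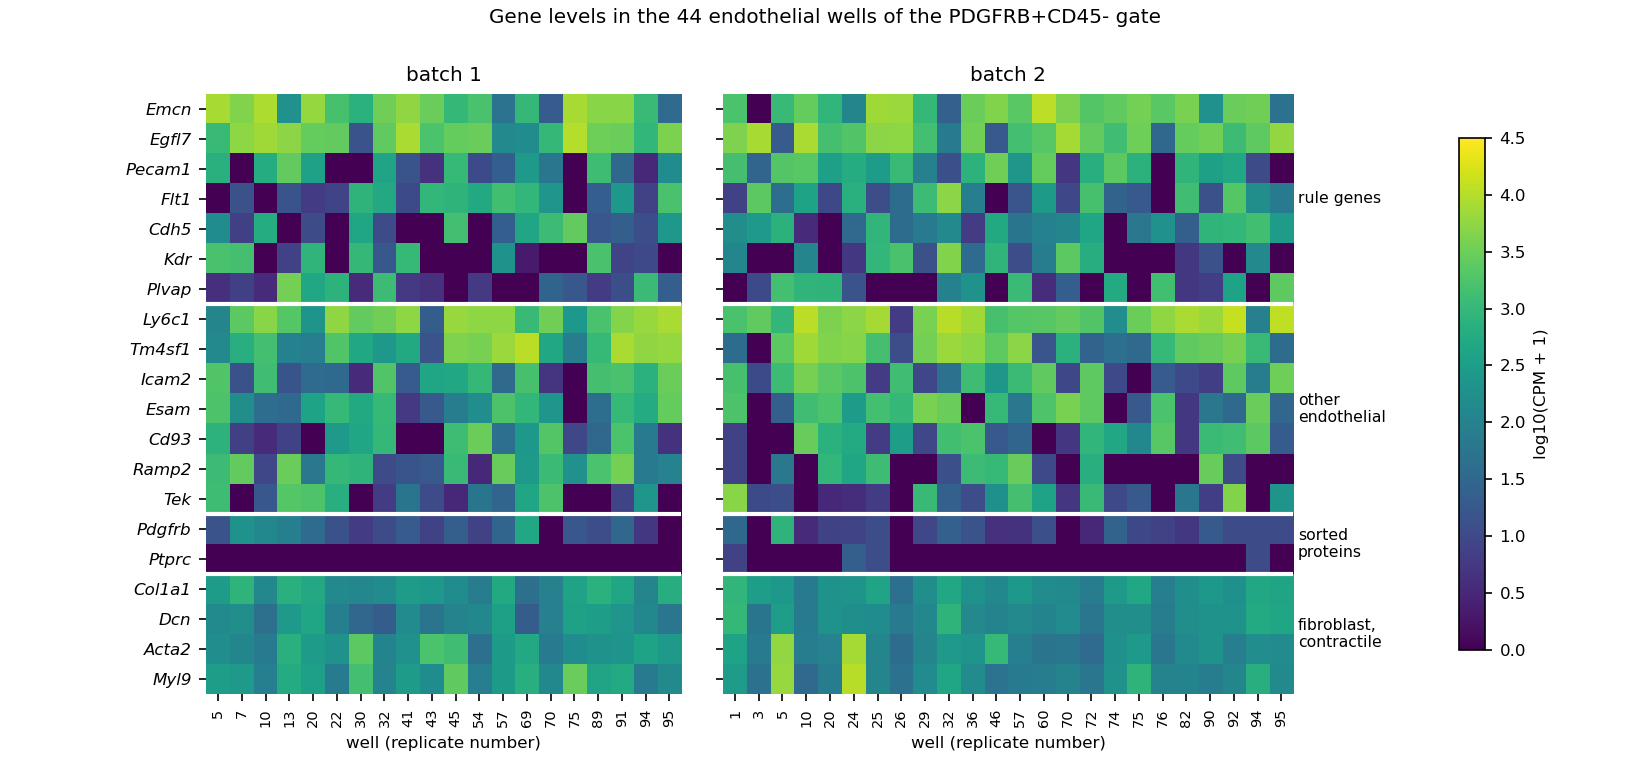
Level as log10 of CPM plus 1, on a colour scale, for marker genes (rows) in each of the 44 endothelial wells (columns, by batch). Egfl7 and Emcn fill most columns, and the other genes that chose the wells are scattered. Col1a1 reaches 100 CPM in 17 of 20 and 20 of 24 wells. Acta2 does so in 17 and 14, with 7907.8 CPM in batch 2 replicate 24 and 5860.4 CPM in replicate 5.

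In 16 wells exactly 3 of the 7 genes reached 100 CPM, in 17 wells 4 did and in 11 wells 5 or 6 did. The wells just inside the rule, with 3 genes, held 3 to 15 of 32 further endothelial genes at 100 CPM, with a median of 8.5. The wells just outside, with 2 genes, held 0 to 11 with a median of 6, and Egfl7 with Emcn was the pair in 8 of the 13. Wells with 4 genes held a median of 10 (6 to 18), those with 5 or 6 genes held 12 (7 to 17), and the comparison wells held 1 (0 to 10). The number of further endothelial genes therefore overlapped between the wells on either side of the threshold. With the batches pooled, the median of the wells with 2 genes lay nearer to that of the wells with 3 than to the comparison wells. The batches differed in this. In batch 1 the wells with 2 genes held 11, 5, 4, 9, 6, 8 and 7, against a comparison median of 2. In batch 2 they held 6, 1, 1, 10, 0 and 3, against a comparison median of 1.

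At least 5 of the 32 further endothelial genes reached 100 CPM in 18 of 20 endothelial wells of batch 1 and in all 24 of batch 2. The 2 wells below that number both came from batch 1. Replicate 43 held 3 of these genes and 656054 CPM of red blood cell genes. Replicate 75 held 3 as well, with the platelet genes Pf4 at 8936 CPM and Gp9 at 713 CPM beside Egfl7 at 10171 CPM. In the comparison wells 0 of 52 in batch 1 and 3 of 52 in batch 2 had 5 or more, the latter being replicates 54 (8 genes), 93 (10 genes) and 96 (5 genes).

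Pdgfrb, the transcript of the receptor used for sorting, was high in few of the endothelial wells. It reached 100 CPM in 4 of the 44: batch 1 replicates 7 (192 CPM), 10 (127 CPM) and 69 (496 CPM), and batch 2 replicate 5 (844 CPM). The other 40 wells lay between 0 and 87.7 CPM with a median of 9.68. Among the comparison wells 18 of 52 in each batch reached 100 CPM (34.6%, interval 22 to 49.1%), against 15% (3.21 to 37.9%) and 4.17% (0.105 to 21.1%) of the endothelial wells. These intervals cover counting error within a plate and do not test the sides against each other. The median wells of the sides were close, at 14.4 against 22.2 CPM in batch 1 and 8.35 against 10.9 CPM in batch 2, so the sides differed in how many wells were high.

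Pooled over wells, that is with the reads of all wells of a side summed before CPM was taken, Pdgfrb stood at 96 CPM in the endothelial and 360 CPM in the comparison wells of batch 1, and at 45.6 and 288 CPM in batch 2. The log2 ratios of the pooled levels with 1 CPM added were -1.90 and -2.63. A single well supplied 74.9% of the Pdgfrb reads of the endothelial wells in batch 1 and 83.5% in batch 2, and without replicates 69 and 5 respectively the ratios were -3.63 and -5.02. In batch 1 the ratio was -2.98 from the mean of well CPM and -2.79 with each well thinned to 50000 reads. At least 1 Pdgfrb read was present in 18 of 20 and 21 of 24 endothelial wells, in 50 and 46 of the 52 comparison wells, and in 3 of 70 and 4 of 69 CD45+ wells. After the same thinning these became 9 and 9 endothelial, 33 and 26 comparison, and 0 and 2 CD45+ wells. After thinning, 45% (interval 23.1 to 68.5%) and 37.5% (18.8 to 59.4%) of the endothelial wells therefore held a Pdgfrb read. The comparison wells stood at 63.5% (49 to 76.4%) and 50% (35.8 to 64.2%), so the intervals of the sides overlapped in each batch. Haemoglobin reads were widespread in the CD45- wells and rare in the CD45+ wells. Whether the CD45+ wells measure the stray reads of the CD45- plates was not tested. Ptprc, which encodes CD45, had reads in 0 of 20 and 4 of 24 endothelial wells, none above 22.1 CPM.

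**Figure D2:**
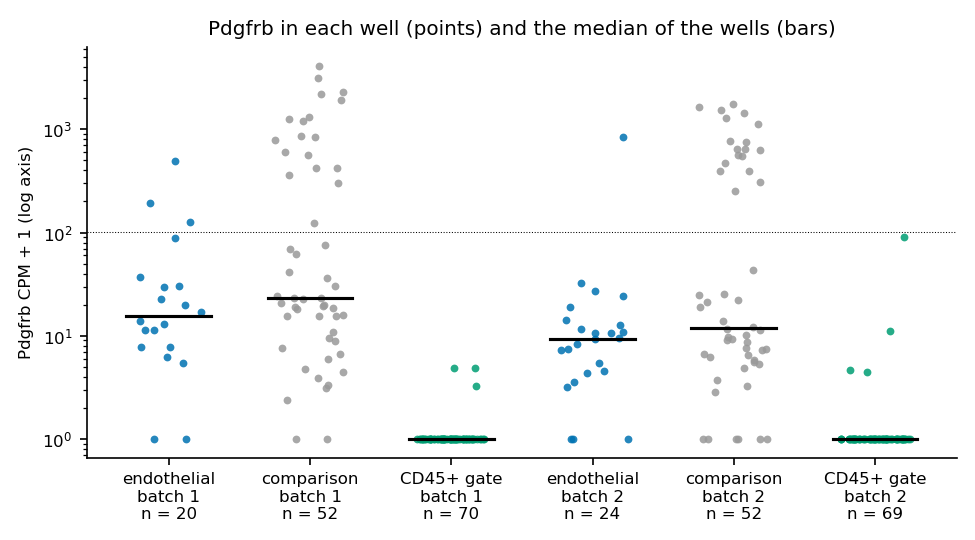
Pdgfrb CPM plus 1 on a log scale with a point for each well and a bar at the median, for the endothelial, comparison and CD45+ wells of each batch. Of the endothelial wells 3 in batch 1 and 1 in batch 2 lie at or above 100 CPM, against 18 comparison wells in each batch and none of the CD45+ wells.

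Across all genes, a gene was considered when its pooled level reached 10 CPM on at least 1 side in each batch, and it was called higher or lower when each batch showed a difference of 4-fold or more between the pooled levels, on the same side, and at least 25% of the wells of the higher side reached 10 CPM in each. The 7 genes of the rule were left out. Of 6834 genes considered, 116 (1.7%) were called higher and 173 (2.53%) lower in the endothelial wells. Pdgfrb was not called, and was called lower without batch 1 replicate 69. Its ratios passed 4-fold in both batches with the mean of well CPM (-2.98 and -2.73) and after thinning to 50000 reads (-2.79 and -2.76). These calls carry no test, because each batch gives 1 value per side. The median log2 ratio of all genes considered was -0.395 in batch 1 and -0.177 in batch 2. DESeq2 size factors moved it to 0.044 and 0.184 and gave 144 genes higher and 149 lower, while TMM factors gave -0.427 and -0.115.

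**Figure D3:**
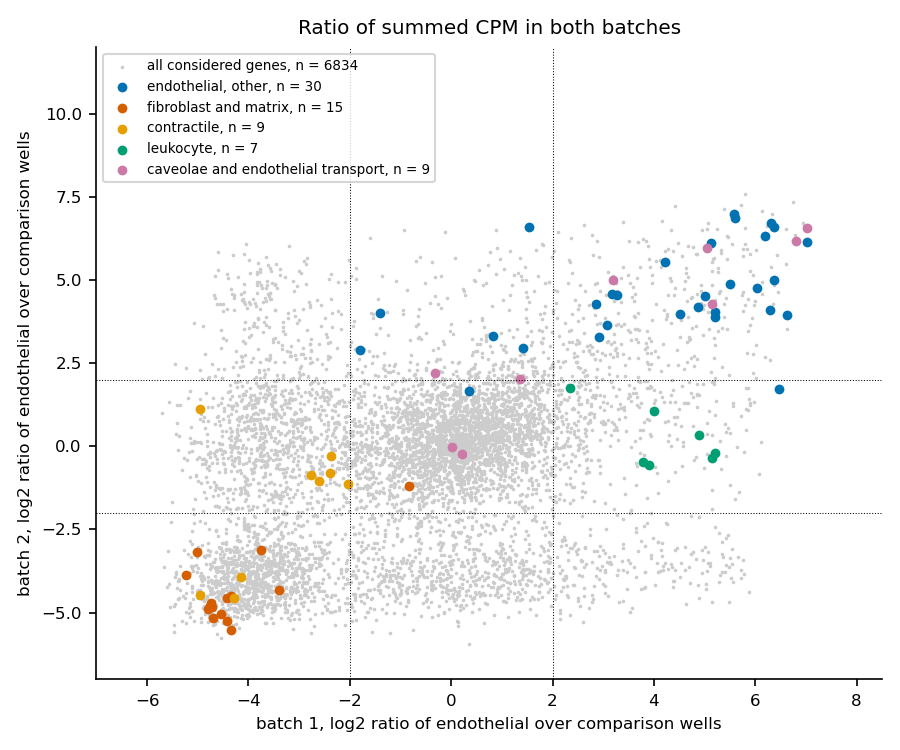
Log2 ratio of the pooled level in the endothelial over the comparison wells, batch 1 against batch 2, with a point for each of the 6834 genes considered. Of the 30 further endothelial genes most lie at the upper right, where both ratios are positive, and genes of fibroblasts and matrix lie at the lower left.

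Endothelial genes that the rule did not use made up 17 of the 116 genes called higher. Of the 30 that could be considered, 17 were called higher and 0 lower, against 1.7% of all genes, and their median log2 ratio was 5.07 in batch 1 and 4.39 in batch 2. Their summed level per endothelial well had a lowest, median and highest value of 903, 13295 and 27367 CPM in batch 1 and 6834, 19219 and 42829.6 CPM in batch 2. The comparison wells stood at 39.8, 1217 and 4521 CPM and at 28.6, 702 and 23659 CPM. The sums overlapped at their extremes, while the medians differed more than 10-fold in each batch.

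Icam2, an adhesion molecule of resting endothelium, was low in the comparison wells, though 42 of 52 and 45 of 52 of them held at least 1 read. In the endothelial wells it ran at 0, 474 and 3094 CPM (lowest, median, highest) in batch 1 and 0, 706 and 3827 CPM in batch 2, and reached 100 CPM in 24 of 44 endothelial and 1 of 104 comparison wells. Its log2 ratios were 7.02 and 6.14, and the latter was 7.25 without comparison replicate 54. The junction protein Esam reached 100 CPM in 27 against 4 wells, at 0, 318 and 2718 CPM in batch 1 and 0, 1010.2 and 3922 CPM in batch 2. Adgrl4, an adhesion receptor, reached it in 19 wells against 0, and Myct1 in 20 against 0.

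Several genes of this group encode receptors or act on them. Tek, the angiopoietin receptor, reached 100 CPM in 15 wells against 2, with pooled levels of 371 against 9.63 CPM in batch 1 and 524 against 6.66 CPM in batch 2. Its ratios of 5.13 and 6.10 were 6.13 without comparison replicate 62 of batch 1 and 6.74 without comparison replicate 54 of batch 2. Its relative Tie1 did so in 9 wells against 1, and its call was lost when any of 5 batch 1 wells was left out, since the share of wells at 10 CPM then fell below 25%, while the log2 ratio stayed between 4.07 and 5.26. The endothelial phosphatase Ptprb, which acts on Tek, reached the level in 21 wells against 2, and the sphingosine 1-phosphate receptor S1pr1 in 16 against 3. Cd93, a lectin-like receptor, did so in 22 against 3, and it was also present at that level in 7 of 70 and 17 of 69 CD45+ wells. The transcription factor Ets1 was called higher at log2 ratios of 3.07 and 3.63, but without batch 1 replicate 70 its ratio was 1.68 and the call was lost.

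Other endothelial genes of the list were broadly spread over the gate. Ly6c1, a surface protein of capillary endothelium, reached 100 CPM in 41 of 44 endothelial wells but also in 28 of 104 comparison wells. Its pooled level was 3656 against 404 CPM in batch 1 and 4682 against 195 CPM in batch 2, a log2 ratio of 3.18 (3.78 without comparison replicate 35) and 4.58. Tm4sf1 reached the level in 32 against 48 wells, with ratios of 2.92 and 3.27. Ecscr was not called, at 1.41 and 2.95, with 34 endothelial and 33 comparison wells at 100 CPM. Cldn5, the main tight junction claudin of endothelium, was high in few wells: 7 reached 100 CPM against 0, batch 1 replicate 30 supplied 55.7% and batch 2 replicate 24 supplied 84.5% of its reads, and too few wells held it for a call. Eng, a TGF-beta co-receptor, was on opposite sides in the batches, at -1.80 (-2.41 without replicate 10) and 2.88 (3.50 without comparison replicate 68).

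The genes called higher were ranked by the smaller of their batch ratios, and of the first 15, Podxl, Cd93, Adgrl4, Icam2, F8, Gpihbp1 and Fabp4 were on the lists and 8 were not. Tmem88, a membrane protein that restrains Wnt signalling, was among the latter, at 710 against 4.68 CPM in batch 1 and 385 against 2.86 CPM in batch 2. It reached 100 CPM in 24 of 44 endothelial wells and in 0 of 104 comparison wells. By counting error alone, 0 of 104 allows a share of up to 2.88%. Tmem88 was picked by its ratio to these same comparison wells, so the limit is a description only. The GTPases of immunity-associated proteins Gimap4 and Gimap5 reached 100 CPM in 21 and 14 endothelial wells, against 3 and 0. Fam167b did so in 15 wells against 0 and Mfng, a glycosyltransferase that modifies Notch receptors, in 14 against 0, with log2 ratios of 6.13 and 7.07 for Mfng. The transcriptional regulator Lmo2 reached it in 8 wells against 0. Car7 and Cmtm8, in 9 wells each, lost their calls when any of several endothelial wells was left out, again through the share of wells, with ratios of at least 5.12 and 5.82 in each such case.

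Podxl, a sialomucin shared by endothelium and podocytes, stood on the podocyte list as well. It reached 100 CPM in 15 endothelial wells and 1 comparison well, with ratios of 5.60 (4.91 without batch 1 replicate 94) and 6.86.

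Genes of capillary lipid transport were among the most abundant transcripts that set the endothelial wells apart. Gpihbp1, which anchors lipoprotein lipase on the capillary surface, ran at 8.88, 3279 and 24193 CPM in batch 1 and 0, 1906 and 33801 CPM in batch 2. Its pooled level was 4902 against 42.6 CPM and 2877 against 38.9 CPM, log2 ratios of 6.81 and 6.17, and it reached 100 CPM in 30 endothelial and 10 comparison wells. Fabp4, a fatty acid binding protein of capillary endothelium, ran at 11.4, 2119.6 and 39099 CPM in batch 1 and 0, 616 and 13965 CPM in batch 2, with 30 against 7 wells at 100 CPM. Its ratio of 7.01 in batch 1 was 6.42 without replicate 70. Both genes reached 100 CPM in 22 of the 44 wells, at least 1 of them in 38 and neither in 6.

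Of 9 genes considered on the list of caveolae and endothelial transport, 5 were called higher, against 1.7% of all genes, and 0 lower, with median log2 ratios of 3.19 and 4.28. Besides Gpihbp1 and Fabp4 these were Slc9a3r2, a scaffold protein (27 wells at 100 CPM against 11, ratios 3.19 and 4.99), the endocytic protein Ehd4 (14 against 1) and the caveolar protein Cavin2 (8 against 1). Ehd4 reached 100 CPM also in 14 of 70 and 13 of 69 CD45+ wells. Cavin2 rested in part on batch 1 replicate 45, without which its ratio of 5.14 was 3.03. Cav1, the main caveolin, had ratios of 1.36 and 2.01 and was not called. Its batch 1 ratio was 4.52 without comparison replicate 47, which made it called higher, and 0.40 without replicate 22, and its batch 2 ratio was 2.63 without comparison replicate 93. Cd36 was not detected at a level that could be considered.

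Genes that mark different vessel segments overlapped among the endothelial wells. Gpihbp1 reached 100 CPM in 8 of the 11 wells with the glomerular gene Ehd3 at that level and in 11 of the 17 with the arterial gene Gja4, against 30 of all 44. On the list for capillaries around the tubules, 2 of 6 genes considered were called higher, against 1.7% of all genes. These were again Gpihbp1 and Fabp4, already counted with the transport genes. At least 3 of its 7 genes reached 100 CPM in 17 endothelial and 3 comparison wells, and at least 1 in 43 of 44 and 50 of 104. Igfbp5, another gene of this list, had ratios of 1.46 and 1.13 (1.94 without comparison replicate 11) and was not called. Igfbp3, at -1.679 and 0.435, and Npr3, at -2.791 and 2.5, were not called either. Esm1, a secreted proteoglycan of capillary and sprouting endothelium, reached 100 CPM in 8 endothelial wells and 0 comparison wells. Its highest wells were in batch 2, replicate 26 at 6610.4 CPM and replicate 74 at 4486 CPM, and batch 1 replicate 13 at 1694 CPM held most of the reads of its batch. It was not called for lack of wells.

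Glomerular endothelium is marked by Ehd3, an endocytic protein. Ehd3 reached 100 CPM in 11 endothelial and 9 comparison wells, with pooled levels of 85.1 against 16.1 CPM in batch 1 and 814 against 91.5 CPM in batch 2. Its ratio of 2.33 in batch 1 fell below the 4-fold limit without replicate 41 (1.75) or replicate 69 (1.92), so that the call rested on each of these wells, and it was 4.47 without comparison replicate 26. The highest levels were all in batch 2, at 4346 CPM in replicate 60, 3896 in replicate 70, 3079 in replicate 25, 2561 in replicate 1 and 2352 in replicate 46. Plat, tissue plasminogen activator, reached 100 CPM in 18 endothelial wells, 9 of them with Ehd3, and the clotting factor gene F8 in 11, 7 of them with Ehd3. Plat was not called, at 1.58 and 2.61, and without comparison replicate 9 of batch 1 its ratio was 2.13 and it was called higher. Of 5 glomerular genes considered, 2 were called higher, Ehd3 and Sox17, against 1.7% of all genes. Lpl, at -1.782 and 0.124, and Tbx3, at 0.342 and 1.601, were not called. At least 3 of the 7 glomerular genes reached 100 CPM in 7 endothelial wells and in 0 comparison wells, and at least 1 in 29 of 44 and 51 of 104.

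Arterial genes were led by Gja4, the gap junction protein connexin 37. It was called higher at ratios of 3.53 and 3.43, with 571 against 48.7 CPM in batch 1 and 695 against 63.5 CPM in batch 2, and reached 100 CPM in 17 endothelial and 7 comparison wells. Batch 2 replicate 24 was its highest well at 3152 CPM, and without it the ratio of that batch was 2.56. Leaving out comparison replicate 47 of batch 1 or 54 of batch 2 raised the ratio to 4.47 or 4.03. Gja4 stood on the pericyte list too. The elastic fibre gene Fbln5 reached 100 CPM in 12 endothelial wells, 8 of them with Gja4, and was not called, at 2.10 and 0.56. Without batch 2 replicate 24 its ratio there was -0.41, and without comparison replicate 21 of batch 1 it was 2.76. Cxcl12, another arterial gene, had ratios of -0.813 and -2.7 and was not called. Of 7 arterial genes considered, 1 was called higher (Gja4), against 1.7% of all genes. At least 3 of the 11 arterial genes reached 100 CPM in 7 endothelial wells and 1 comparison well, and at least 1 in 27 of 44 and 55 of 104. Gja4 occurred with the fenestration gene Plvap in 3 wells, a count that the use of Plvap in the rule affects.

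**Figure D4:**
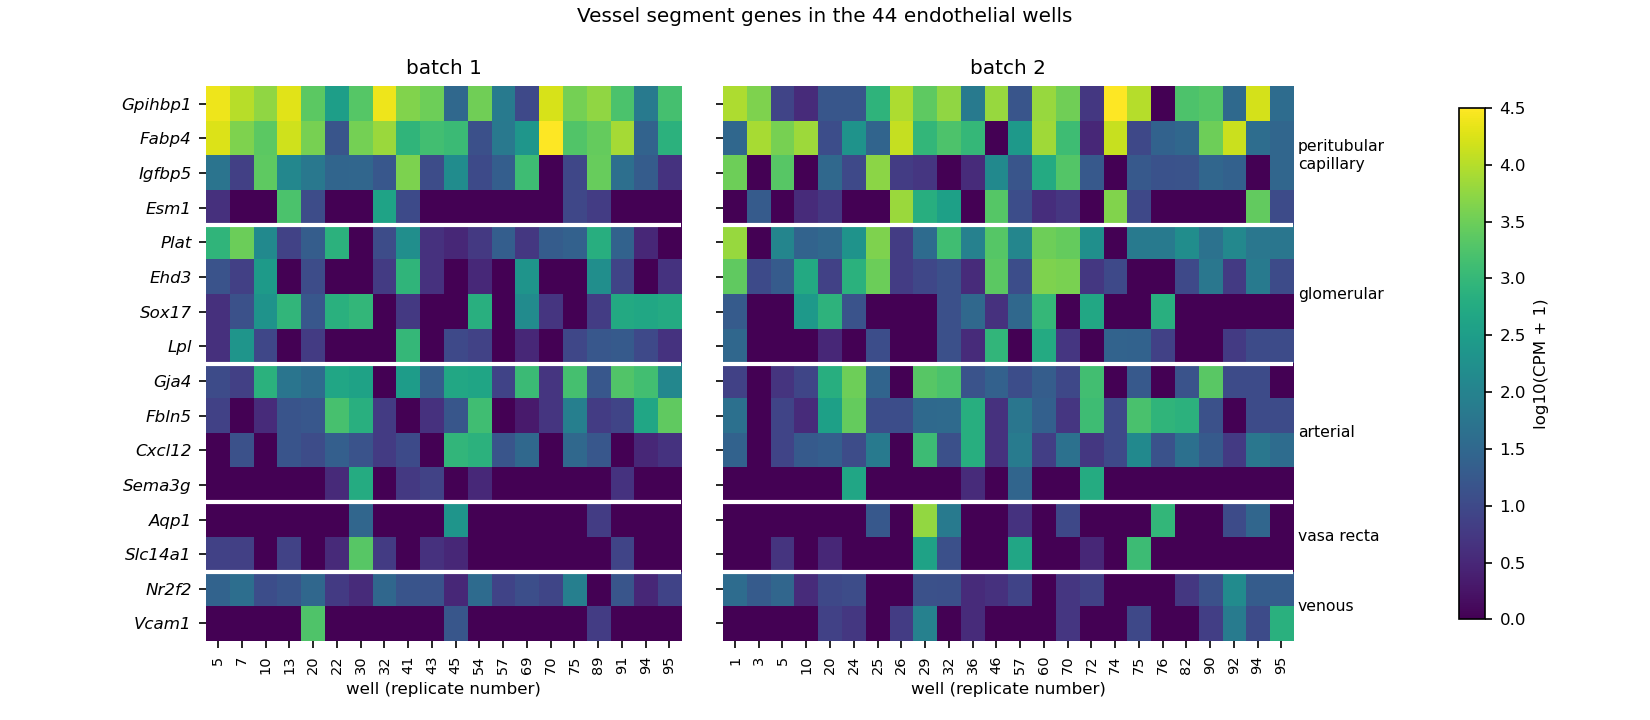
Level as log10 of CPM plus 1, on a colour scale, of genes of vessel segments (rows) in each of the 44 endothelial wells (columns, by batch). Gpihbp1 and Fabp4 reach 100 CPM in 30 wells each, while Ehd3, Gja4, Esm1 and Slc14a1 do so in 11, 17, 8 and 4.

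Venous and lymphatic genes were low in most endothelial wells. At least 1 venous gene reached 100 CPM in 4 of 44 endothelial and 52 of 104 comparison wells, and at least 1 lymphatic gene in 1 and 0. At least 3 venous genes, the number used above for the other segments, did so in 0 endothelial and 0 comparison wells. Nr2f2, a transcription factor of venous endothelium that stromal cells express too, was called lower, at 14.6 against 342 CPM in batch 1 and 13.1 against 276 CPM in batch 2, and it reached 100 CPM in 1 endothelial and 50 comparison wells. Its ratio of -4.30 in batch 2 was -4.92 without replicate 92, the well above 100 CPM. Vcam1, the other venous gene considered, was not called, at 3.415 and -0.965. Its batch 1 ratio was -1.238 without replicate 20. Its batch 2 ratio was -2.169 without replicate 95 and -0.109 without comparison replicate 49. Vwf, Selp and Ackr1 did not reach the level needed to be considered. None of the lymphatic genes could be considered, and Prox1, Lyve1, Pdpn, Ccl21a and Mmrn1 had no read in any of the 44 wells. Flt4, the lymphatic VEGF receptor, was at 1301 CPM in batch 1 replicate 5. Slc14a1, the urea transporter of descending vasa recta, reached 100 CPM in 4 endothelial and 0 comparison wells, from 390 CPM in batch 2 replicate 29 to 2149.5 CPM in batch 1 replicate 30. Replicate 29 also held the water channel Aqp1 at 5816 CPM.

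Of 10 genes of tip cells, the leading cells of vessel sprouts, 8 were considered and 0 were called, with median ratios of 1.79 and 2.96. The batch 1 median was 0.19 without replicate 69, 0.92 without replicate 5 and 1.07 without replicate 32, and the batch 2 median was 0.91 without replicate 26. At least 3 of them reached 100 CPM in 3 endothelial wells, all of batch 2, and in 0 comparison wells. In replicate 26, the well with the most, Angpt2 stood at 9022 CPM, Kcne3 at 5958 CPM, Apln at 2759.7 CPM and Adm at 733 CPM beside Esm1. This well supplied most of the Angpt2 of its batch, since the Angpt2 ratio of 1.64 was -3.28 without it.

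Signalling lists gave few calls. None of the 7 genes considered among VEGF and angiopoietin ligands and co-receptors was called, and their median log2 ratios were -1.71 and -4.00. The former was -3.55 without batch 1 replicate 69 and -2.67 without replicate 32. Nrp1, a VEGF co-receptor, reached 100 CPM in 22 endothelial and 40 comparison wells. Of 11 TGF-beta and BMP genes 1 was called higher, against 1.7% of all genes. It was the BMP target Id1, at 2.42 and 2.81 with 17 against 11 wells. Without batch 1 replicate 45 its ratio was 1.73 and the call was lost, without batch 2 replicate 24 it was 2.00, and without comparison replicates 23 of batch 1 or 11 of batch 2 it was 3.31 or 3.43. Its relative Id3 had ratios of -0.08 and -0.07 and reached 100 CPM in 39 endothelial and 96 comparison wells.

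None of 6 Notch genes was called, at medians of 0.98 and 1.13. Hes1, a Notch target, had ratios of 1.57 and 1.64, with 25 endothelial and 34 comparison wells at 100 CPM. The endothelial receptor Notch4 reached that level in 4 wells against 0. Pdgfb, the ligand of PDGFRB, reached it in 4 endothelial and 0 comparison wells, at 181 and 107 CPM in batch 1 replicates 91 and 95 and at 259 and 285 CPM in batch 2 replicates 29 and 60. None of these 4 wells was among the 4 with Pdgfrb at 100 CPM.

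Genes of clotting, junctions and class I antigen presentation had members on the higher side. On the list of clotting and fibrinolysis, F8 and the protein C receptor Procr were called higher of 5 considered, against 1.7% of all genes. F8 reached 100 CPM in 11 wells against 0 and Procr in 10 against 1, but leaving out any of 6 wells of batch 2 ended each call through the share of wells at 10 CPM, with ratios of at least 6.22 and 3.78. Of 10 junction genes 3 were called higher, again against 1.7% of all genes, namely Esam, F11r (28 wells against 16) and Jam2 (19 against 8). The list medians were 2.49 and 2.79, and the former was 0.83 without batch 1 replicate 5 and 1.81 without replicate 10. The class I heavy chain H2-D1 was called higher at 1046 against 157 CPM in batch 1 and 2361 against 317 CPM in batch 2, and reached 100 CPM in 40 endothelial and 47 comparison wells. H2-K1 had ratios of 2.63 and 2.11, and the latter was 1.85 without replicate 10. B2m, the shared light chain, was at 100 CPM in all 44 endothelial and 100 of 104 comparison wells and was not called. The summed class I genes had medians of 10391 and 7954 CPM in the endothelial wells, 2623 and 2286 CPM in the comparison wells and 8276 and 9544 CPM in the CD45+ wells.

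On the lower side, 14 of 15 fibroblast and matrix genes were called, against 2.53% of all genes, with median log2 ratios of -4.53 and -4.72. Their summed level in the endothelial wells was 618, 1967 and 4259 CPM (lowest, median, highest) in batch 1 and 351, 1241 and 5124 CPM in batch 2. The medians of the comparison wells were 35854 and 23464 CPM, with single wells as low as 350 and 394 CPM, so the ranges overlapped. Collagen I was not absent: Col1a1 stood at 44.4, 278 and 852 CPM in batch 1 and 42.8, 206 and 904 CPM in batch 2, and reached 100 CPM in 37 of 44 endothelial wells. In the CD45+ wells it did so in 6 of 70 and 16 of 69, with medians of 5.96 and 26 CPM. Whether these Col1a1 reads came from the sorted cell or from RNA free in the suspension was not tested.

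Pooled Col1a1 was 250 against 6518 CPM in batch 1 and 217 against 7783 CPM in batch 2, log2 ratios of -4.70 and -5.16. Col3a1 had ratios of -4.80 and -4.88, and the proteoglycan Dcn had -4.76 and -4.81. The ratios of these abundant matrix genes were close to each other, whereas Mgp, an inhibitor of calcification, was at -3.76 and -3.13 and reached 100 CPM in 41 of 44 endothelial wells. Without replicate 24 the Mgp ratio of batch 2 was -4.01, and that of fibronectin, Fn1, went from -3.17 to -4.12. Pdgfra, the fibroblast PDGF receptor, reached 100 CPM in 0 endothelial and 16 comparison wells. Fbln2 was the gene of the list not called, at -0.83 and -1.20. Its batch 1 ratio was -1.73 without replicate 94 and -1.61 without replicate 95, and its batch 2 ratio was -2.33 without replicate 24.

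Of the first 15 genes called lower, ranked the same way, Col3a1 and Dcn were on the lists. They were joined by the adhesion molecule Ncam1 (ratios -5.55 and -4.84), the endocytic receptor Lrp1 (-5.48 and -4.82), and the secreted proteins Spon1 (-5.46 and -5.39) and Sfrp1 (-5.15 and -5.13). None of these 4 reached 100 CPM in any endothelial well, against 21, 40, 41 and 35 of the comparison wells. The remaining genes were Col14a1, Col5a2, Adamts2, Smoc2, Clec11a, Cyp1b1, Adh1, Plxnb2 and Tmem213, which reached that level in 0 endothelial and 11 to 54 comparison wells each.

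Basement membrane genes, which endothelium and stroma both make, had medians of -1.39 and -1.05. Of 12 considered 1 was called lower, against 2.53% of all genes (Col15a1, 1 endothelial and 38 comparison wells at 100 CPM). Sparc reached 100 CPM in every well of both sides, and stood at 2394, 7254 and 20938 CPM in the endothelial wells of batch 1 and 3376, 7493 and 24638 CPM in those of batch 2. Its ratios were -1.06 and -1.04.

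**Figure D5:**
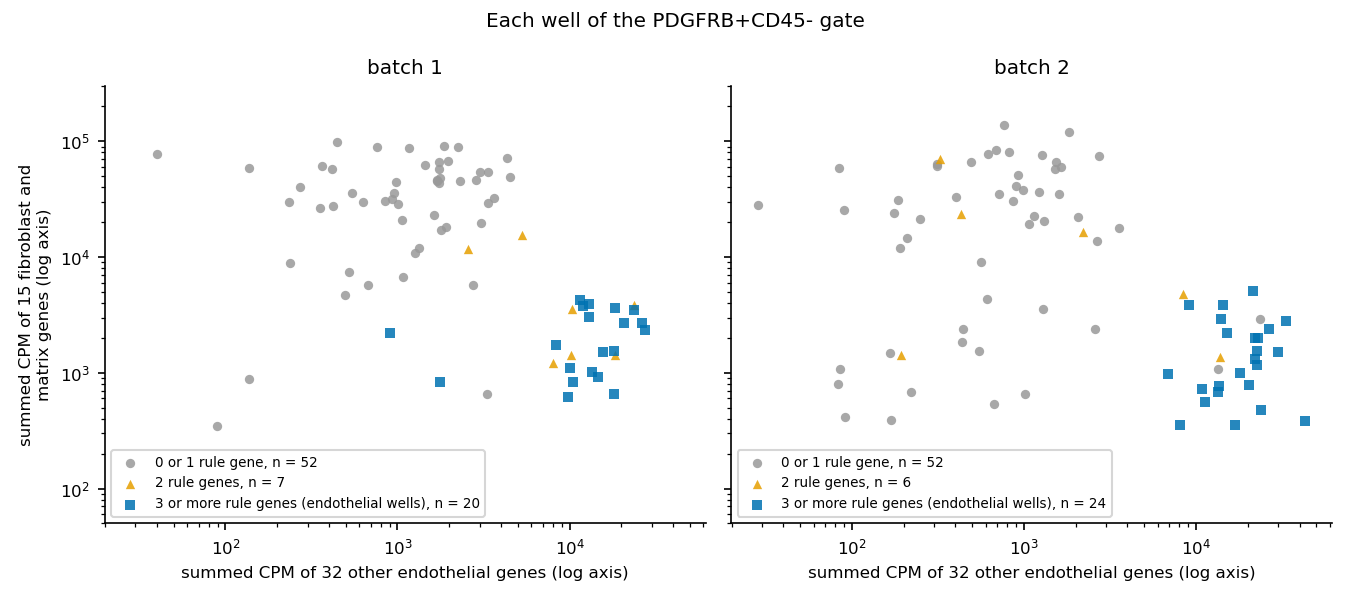
Summed CPM of the 32 further endothelial genes against that of the 15 fibroblast and matrix genes, both on log scales, with a point for each well of the gate by batch. The endothelial wells stay at or below 5124 CPM of matrix genes, and the comparison wells reach 139322 CPM.

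Contractile genes of smooth muscle and myofibroblasts had lower levels in most endothelial wells and high levels in a few. They were not absent: Acta2 reached 100 CPM in 17 of 20 and 14 of 24 endothelial wells, against 44 and 33 of the 52 comparison wells. Acta2 and Myl9 each reached it in 31 of the 44 endothelial wells, and both in 27. The summed contractile genes had medians of 1101 and 442 CPM, against 5256 and 3325 CPM in the comparison wells and 63.1 and 9.11 CPM in the CD45+ wells. Of 9 genes, Actg2 and Des were called lower, against 2.53% of all genes. Smooth muscle actin, Acta2, stood at 530 against 2788 CPM in batch 1 (ratio -2.39) and 1308 against 2281 CPM in batch 2 (-0.80), and Myl9 at 574 against 3899 CPM (-2.76) and 1573 against 2866 CPM (-0.87). Batch 2 replicate 24, with Acta2 at 7908 CPM, Myl9 at 10339 CPM and Tagln at 2273 CPM, set the batch 2 values: without it the ratios were -2.30 for Acta2, -2.67 for Myl9 and -2.54 for Tagln, and all 3 were called lower. In the same well Gja4 was at 3152 CPM, Fbln5 at 2784 CPM, Cldn5 at 2174 CPM and Pdgfrb at 7.38 CPM.

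At least 3 fibroblast or contractile markers reached 1000 CPM in 4 endothelial wells, batch 1 replicates 30 and 45 and batch 2 replicates 5 and 24, against 48 of 52 and 37 of 52 comparison wells. Batch 2 replicate 5 held Acta2 at 5860.4 CPM with Pdgfrb at 844 CPM, and was the endothelial well with the most Pdgfrb. Batch 1 replicates 30 and 45 held 1408 and 827 CPM of the pericyte gene Rgs5. Without these 4 wells 113 genes were called higher and 196 lower, 105 and 167 of them in common with the calls on all wells. Whether such wells held 1 cell or 2 was not tested. Of 7 pericyte genes considered, 1 was called higher (Gja4), against 1.7% of all genes, and 0 lower, with median ratios of 0.05 and -1.29. At least 1 of the 9 pericyte genes reached 100 CPM in 24 of 44 endothelial and 52 of 104 comparison wells. Their summed level had medians of 420.7 and 85.53 CPM in the endothelial wells, against 181.6 and 56.37 CPM. The count and the sum include Gja4, also used here as an arterial gene, and were not taken without it. Gja4 reached 100 CPM in 11 of 20 and 6 of 24 endothelial wells, against 4 and 3 of the 52 comparison wells. Rgs5 did so in 4 of 20 and 1 of 24, against 9 and 8 of 52.

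Transcription factors linked to endothelial to mesenchymal transition gave no call among the 4 considered. Zeb1 had ratios of 3.75 and 1.30, with 7 endothelial and 8 comparison wells at 100 CPM. Its batch 1 ratio was 2.37 without replicate 69 and 5.88 without comparison replicate 37, and its batch 2 ratio was 0.38 without replicate 74. Snai2 had ratios of -4.81 and -1.09, and without batch 2 replicate 5 the latter was -3.08 and Snai2 was called lower. The median of the list was 0.44 in batch 1 and -2.45 in batch 2.

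Leukocyte transcripts were found in some endothelial wells. At least 3 of 10 leukocyte markers reached 100 CPM in 5 wells of batch 1 and 3 of batch 2, against 0 and 4 comparison wells and 70 of 70 and 69 of 69 CD45+ wells. The summed markers had medians of 187 and 447 CPM in the endothelial wells, 36.9 and 167 CPM in the comparison wells and 71358 and 97544 CPM in the CD45+ wells, and the highest endothelial wells stood at 12628 and 15269 CPM. Cd74, the class II invariant chain, reached 100 CPM in 18 endothelial and 17 comparison wells, with ratios of 4.01 and 1.07, and was not called. Without comparison replicate 66 the batch 1 ratio was 5.79, and the batch 2 ratio was 1.86 without comparison replicate 51 and 0.44 without replicate 70. Without the 8 wells 107 genes were called higher and 174 lower, 99 and 164 of them in common with the calls on all wells. The part of leukocyte RNA in the class I and Gimap levels was not tested.

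Haemoglobin reads were widespread in the gate: Hbb-bs reached 100 CPM in 41 of 44 endothelial and 96 of 104 comparison wells, but in 1 of 70 and 1 of 69 CD45+ wells. Its highest endothelial well was batch 1 replicate 43, at 333407 CPM. Of the 11 tubule markers at least 1 reached 100 CPM in 2 endothelial wells of batch 1 and 4 of batch 2, against 7 and 12 comparison wells. Aqp2, the water channel of the collecting duct, was called lower, but comparison replicate 43 decided its batch 2 value, which was -0.25 without it. Early response genes gave no call among 8 considered, with Fos at 100 CPM in 18 endothelial and 44 comparison wells.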

How the data were processed

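The authors deposited raw read counts per gene and well, 1 table per batch. Per the submitters' processing notes STAR 3.0.4 and featureCounts 1.4.5 of Subread were used, and the genome build is not given in the sources used here. Reads carry no molecular identifiers, so PCR copies count as reads. Rows of 300 genes in batch 1 and 302 in batch 2 were repeated with identical values and were used once. CPM, pooled levels and log2 ratios with a pseudocount of 1 CPM were computed here with Python 3.11.15, numpy 2.4.6, pandas 2.3.3 and scipy 1.17.1, figures with matplotlib 3.10.9. R 4.3.3 with edgeR 4.0.16 and DESeq2 1.42.0 gave alternative scaling factors only, and no test was run, since each gate and batch is 1 plate. The calculation was tested on simulated data.

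In the CD45- gate 17 wells of batch 1 and 14 of batch 2 were under 50000 reads and were left out. Wells keep a replicate number in accession order as a name. The text names the 15 genes called in each direction with the largest smaller ratio, the leading members of each list, and genes that a single well decided. The members and the 31 gene lists were chosen with earlier results of these data known. Alternatives changed the marker level and number, the scaling, the pseudocount, the filter, the fold, the comparison wells, the depth and each well in turn.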

Additional observations from a re-analysis of the deposited data

Results flagged for a closer look

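In the CD45+ gate of batch 2, outside the comparison, 7 of 78 wells met the same endothelial rule (8.97%, Clopper-Pearson interval 3.69 to 17.6%), as did 3 of 76 in batch 1 (3.95%, 0.822 to 11.1%). They are listed because they carry an endothelial signal in wells that no comparison used. Each of these 10 wells also held at least 5 leukocyte markers at 100 CPM, and each held 4 to 11 further endothelial genes at that level. Pdgfrb was at 0 CPM in 9 of them and at 237.5 CPM in batch 2 replicate 68.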

How the results depend on the processing

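The sides were compared within each batch. No paired test was made, because each batch gives 1 value per side. Single wells were not paired, since they carry numbers in accession order only. Requiring 4 of the 7 genes left 28 endothelial wells. A 2-fold limit gave 237 genes higher and 292 lower, and an 8-fold limit gave 72 higher. Over the settings that each left out 1 well, 109 to 119 genes were called higher and 168 to 182 lower. Leaving out some single well ended 9 of 39 higher calls (Car7, Cmtm8, Ehd3, Ets1, F8, H2-K1, Id1, Procr and Tie1) and 1 of 32 lower calls (Aqp2) among listed or named genes. The Pdgfrb ratio in batch 1 was -2.98 as a mean of well CPM, -2.79 after thinning and -3.63 to -1.79 without single wells, and in batch 2 -5.02 to -2.49. Counting any read, Pdgfrb was in 18 and 21 endothelial wells, 9 and 9 after thinning, and Ptprc in 4 of batch 2. With the mean of well CPM the list median turned to -1.11 (PDGF, batch 2), -0.24 (endothelial to mesenchymal transition factors, batch 1) and -0.13 (stress, batch 2); with DESeq2 size factors, chosen after seeing the data for lists, leukocyte and interferon medians of batch 2 went from -0.21 and -0.17 to 0.16 and 0.20. Without single wells, medians crossed 0 for endothelial activation (-1.24 to 3.64 and -0.55 to 0.74), PDGF (-1.86 to 0.63 and -2.49 to 0.28), stress (-0.50 to 0.46 and -0.76 to 0.70) and, in batch 1, the transition factors (-0.77 to 0.54), pericyte (-1.47 to 0.15) and platelet (-2.92 to 2.17). The cause was not tested. Leaving out wells with 3 fibroblast or contractile markers at 100 CPM was not run, since it left 0 and 3 endothelial wells. Leaving out wells with mixed markers and the comparison with mesenchymal wells (128 higher, 188 lower) were chosen after seeing the data. Depth limits absence of a gene from a well: at the shallowest endothelial well, 100 CPM is under 10 reads.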
